A study of Mus musculus with 278 samples.

Results

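Cultures of mouse keratinocytes from adult dorsal skin held a minority of cells with the keratins of epidermis and a majority with fibrillar collagen in the library series named GHA501A. The cells were chosen by their Krt14 and Col1a1 levels alone and then compared across all other genes measured. A cell was called keratinocyte-like where keratin 14 (Krt14) was at 200 TPM or more and collagen type I alpha 1 (Col1a1) under 100 TPM, and fibroblast-like where Krt14 was under 10 TPM and Col1a1 at 100 TPM or more. TPM is the transcript level per length, scaled so that every cell sums to 1000000. Of 140 labelled GHA501A cells, 18 were keratinocyte-like and 83 fibroblast-like, out of 278 labelled cells in the whole series.

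Both classes were taken from wells in which WT keratinocytes were mixed at 9:1 with K14ΔNβ-cateninER keratinocytes. In the latter, the Krt14 promoter drives a stabilised form of beta-catenin whose activity is controlled through part of the oestrogen receptor. Untreated wells received DMSO and treated wells 200 nM 4-hydroxy-tamoxifen (4OHT), which switches it on, for 24 h. Transgenic and WT cells were not told apart here. Single cells were caught on a microfluidic chip for cells of 10 to 17 μm and sequenced after SMART-Seq v4 amplification. GHA501A held 1 set of 71 untreated and 1 set of 69 treated cells, so set and treatment cannot be told apart, and the cells of a set are not independent replicates of a treatment. Every label gives the cell type as keratinocytes.

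In skin, keratinocytes form the layered epidermis and are held together by desmosomes, adherens junctions and tight junctions, while fibroblasts of the underlying dermis secrete and crosslink the collagen matrix. Basal keratinocytes make Krt5 and Krt14 and attach to the basement membrane through hemidesmosomes; they switch to other keratins and to cornified envelope proteins as they differentiate. Epithelial identity is kept by factors such as the grainyhead and Ovol families and by the splicing regulators Esrp1 and Esrp2. Zeb1, Snai1 and Snai2 are repressors of epithelial genes that bind the E-box sequence.

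The 3 promoters below are shown because they belong to junction genes that were higher in keratinocyte-like cells and hold this E-box, CAGGTG in either orientation, which is in capitals. Each is 300 bases of GRCm38.p6 from RefSeq, from 250 bases before to 50 bases after the start of the gene, 5′ to 3′ along the strand of the gene. Dsp (desmoplakin, which ties desmosomes to keratin) lies on the plus strand at chr13:38151044-38151343, Epcam (an epithelial adhesion molecule) on the plus strand at chr17:87635729-87636028 and Cldn4 (a tight junction claudin) on the minus strand at chr5:134946885-134947184.
Dsp: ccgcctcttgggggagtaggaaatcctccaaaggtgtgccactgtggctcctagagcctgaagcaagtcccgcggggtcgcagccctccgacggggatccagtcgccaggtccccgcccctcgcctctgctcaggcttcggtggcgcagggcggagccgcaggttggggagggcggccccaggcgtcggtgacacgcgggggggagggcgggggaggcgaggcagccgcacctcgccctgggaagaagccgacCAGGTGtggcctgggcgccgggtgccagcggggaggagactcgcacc
Epcam: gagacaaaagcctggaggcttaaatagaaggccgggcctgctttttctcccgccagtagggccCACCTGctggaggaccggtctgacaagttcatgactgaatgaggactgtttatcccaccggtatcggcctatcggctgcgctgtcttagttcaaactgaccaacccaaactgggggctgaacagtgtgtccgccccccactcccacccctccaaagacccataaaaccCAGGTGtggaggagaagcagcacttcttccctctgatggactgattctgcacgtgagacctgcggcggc
Cldn4: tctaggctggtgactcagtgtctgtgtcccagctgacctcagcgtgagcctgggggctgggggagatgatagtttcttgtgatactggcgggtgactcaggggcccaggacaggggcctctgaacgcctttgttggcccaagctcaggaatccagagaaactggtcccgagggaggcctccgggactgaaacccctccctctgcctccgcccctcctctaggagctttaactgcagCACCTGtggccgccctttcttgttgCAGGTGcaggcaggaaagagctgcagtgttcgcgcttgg

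The cells were not divided evenly between the definitions. Keratinocyte-like cells made up 8 of 71 untreated cells, or 11.3% (exact 95% binomial interval 4.99 to 21%), and 10 of 69 treated cells, or 14.5% (7.17 to 25.04%). Fibroblast-like cells made up 49 of 71 untreated cells, or 69.01% (56.9 to 79.5%), and 34 of 69 treated cells, or 49.3% (37.02 to 61.6%). The intervals cover counting error only. The remaining 39 cells met neither definition, 14 untreated and 25 treated. Of these, 30 had Krt14 between 10 and 200 TPM (12 untreated, 18 treated). Another 8 had Krt14 of 200 or more together with Col1a1 of 100 or more (1 untreated, 7 treated). The last, an untreated cell, had Krt14 at 0 and Col1a1 at 95.6 TPM, just under the limit of 100 TPM for fibroblast-like cells. The study's protocol excluded doublets by imaging the capture sites, and no doublet caller was applied here. In the other library series, named AG, 123 of 130 cells were keratinocyte-like by the same definition and 0 were fibroblast-like.

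Krt14 and Col1a1 chose the cells, so their levels are given without a test. Krt14 ranged from 718 to 4376 TPM in untreated keratinocyte-like cells (median 1676) and from 489 to 12671 TPM in treated ones (median 3362). In fibroblast-like cells it was at most 9.52 TPM. Col1a1 ranged from 104.2 to 7667 TPM in untreated fibroblast-like cells (median 1416) and from 278 to 7960 TPM in treated ones (median 1002), and reached 77.1 TPM in keratinocyte-like cells. The keratinocyte-like cell nearest to both limits was the treated cell of library number 1, with Krt14 at 489 and Col1a1 at 77.1 TPM. Just outside lay a treated cell with Krt14 at 3211 and Col1a1 at 106.1 TPM. At the other definition, a fibroblast-like cell had Krt14 at 9.52 TPM, and just outside lay a cell with Krt14 at 10.1 and Col1a1 at 827 TPM. The median number of genes over 1 TPM per cell was 6852.5 and 5819 in untreated and treated keratinocyte-like cells, and 6277 and 6061 in fibroblast-like cells.

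The labels of both groups held against the markers Krt5 and Col1a2, neither of which was used to choose the cells. Krt5, the partner of Krt14 in basal keratin filaments, was between 260 and 2219 TPM in the 8 untreated keratinocyte-like cells and between 0 and 3845 TPM in the 10 treated ones, against at most 20.9 TPM in fibroblast-like cells. Col1a2, the second chain of type I collagen, had a median of 155 TPM in untreated and 102.4 TPM in treated fibroblast-like cells, and was at most 7.39 TPM in keratinocyte-like cells, although a few fibroblast-like cells were as low as 1.12 TPM. One cell went against its definition. The treated cell of library number 1 was listed at 0 for Krt5, Cdh1 and Epcam and had Krt17 at 505 TPM and the intermediate filament gene Vim at 583 TPM. In the other 17 keratinocyte-like cells Krt5 was at least 260, Epcam at least 61.2 and Krt17 at least 3708 TPM, and Vim was at most 311 TPM. That cell had 4 of 20 junction genes over 1 TPM and the others 12 to 19. Without it, all 98 called genes of the lists and of the rule given below kept their call and direction, and 4 of them, Vim, Pcolce, Lox and Fgf7, moved by over 1.5-fold. Krt5, Epcam and Cdh1 then differed by 8.77 ± 0.52, 8.87 ± 0.62 and 7.08 ± 0.89 on the log2 scale between the classes. A further 8 genes of the lists were called only without it: Cdh3, Grhl1 and Tgfa, higher in keratinocyte-like cells, and Fbn1, Postn, Cnn1, Top2a and Mitf, higher in fibroblast-like cells.

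**Figure D1:**
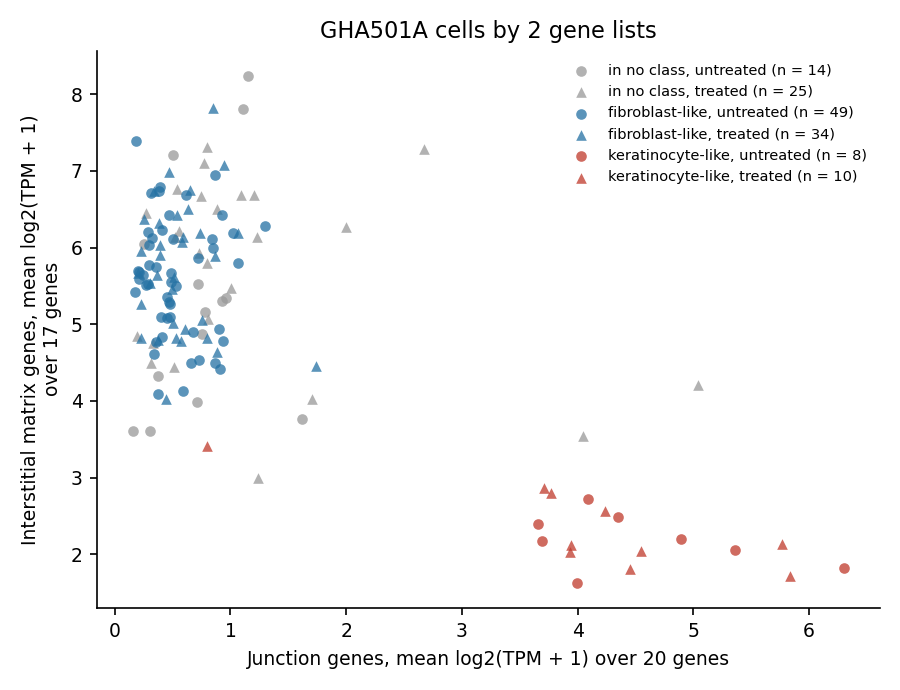
Each point is 1 GHA501A cell, placed by its mean log2(TPM + 1) over 20 junction genes (x axis) and over 17 interstitial matrix genes without Col1a1 (y axis); colour marks the class and shape the treatment. All keratinocyte-like cells but 1 lie at 3.66 or more on the x axis, the exception being the treated cell of library number 1 at 0.79, while fibroblast-like cells lie at 1.74 or less and at 4.03 or more on the y axis.

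To compare the classes, the TPM of the cells of each class were averaged within each library set, which gave 4 profiles, and log2(mean TPM + 1) was fitted with limma on class with library set as a block. Genes were called at an adjusted p under 0.05 and a log2 fold change beyond 0.5. Of 11088 genes tested, 213 were higher in keratinocyte-like cells (1.92%) and 206 in fibroblast-like cells (1.86%), together 3.78%. All 419 had the same direction in the untreated and the treated set. This is no separate check, since the call rests on the mean of these same 2 differences. Without the treated cell of library number 1 there were 276 and 345 calls. A difference of at least 4-fold in each set separately was met by 299 genes higher in keratinocyte-like cells (2.7%) and 409 higher in fibroblast-like cells (3.69%), and by 364 of the 419 called genes. The fit has 2 profiles per class. Its standard error (SE, after ±) takes a gene's spread between the sets after the block, shrunk towards that of genes at similar levels. So it is not the gene's own spread: Krt5 differed by 8.70 and 8.69 in the 2 sets, with an SE of 0.47. The classes were cut from the same cells, so the calls describe how far the classes lie apart. Stricter class thresholds left 4 untreated and 1 treated keratinocyte-like cells, with which limma called 0 genes and 989 had an unadjusted p under 0.05.

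**Figure D2:**
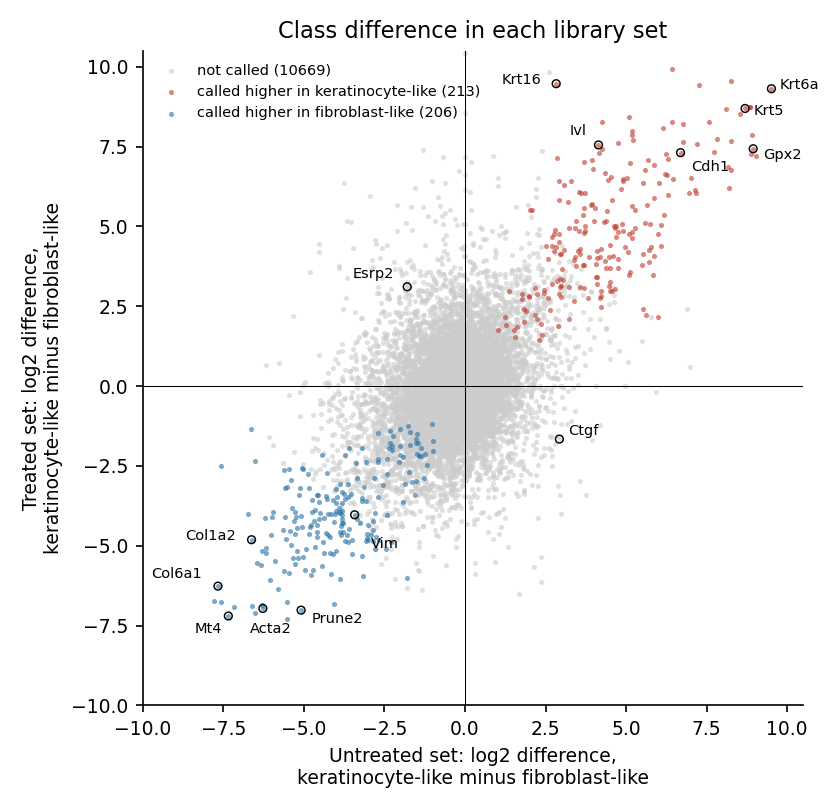
Each point is 1 of 11088 genes, placed by its log2 difference between keratinocyte-like and fibroblast-like profiles among untreated cells (x axis) and among treated cells (y axis); coloured points were called by limma. The 213 genes called higher in keratinocyte-like cells lie in the upper right quadrant and the 206 called higher in fibroblast-like cells in the lower left, while Esrp2 and Ctgf, not called, have opposite signs in the 2 sets. The calls were made from both differences, so their placing is no separate check.

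Basal keratinocyte genes were called higher in keratinocyte-like cells in 9 of 11 tested, beside 1.92% of all genes. Their median log2 fold change was 4.37, against -0.15 over all genes. Krt5 averaged 919 and 1761 TPM in untreated and treated keratinocyte-like cells and 1.22 and 3.26 TPM in fibroblast-like cells, a log2 fold change of 8.69 ± 0.47 (SE, limma adjusted p = 2.97e-05). The hemidesmosome collagen Col17a1 differed by 7.11 ± 0.80 on the log2 scale, and its integrin partners Itga6 and Itgb4 by 4.82 ± 0.70 and 3.84 ± 0.87. However, Itgb4 averaged 0 TPM in both sets of AG keratinocyte-like cells, where Itga6 averaged 95.1 TPM untreated and 75.1 TPM treated. The 2 series were not tested against each other. Lama3 and Lamb3, which encode chains of a laminin on which basal cells sit, differed by 5.66 and 4.37. Lama3 was over 1 TPM in 16 of 18 keratinocyte-like cells, 8 in each set, and in 1 of 83 fibroblast-like cells. Dst (0.97 ± 0.90), which encodes a hemidesmosomal plakin, and Cdh3 (3.04 ± 0.81, adjusted p = 0.0761), which encodes P-cadherin, were not called.

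Keratins of stressed and of simple epithelia were called higher in 7 of 8 tested, beside 1.92% of all genes, with a median of 7.34. Krt17 was the highest of them, with means of 15851 and 16661 TPM in keratinocyte-like cells against 41.9 and 44.6 TPM in fibroblast-like cells (8.52 ± 0.28, limma adjusted p = 1.72e-06). Krt6a differed by 9.41 ± 0.35 and Krt18, a keratin of simple epithelia, by 8.79 ± 0.47. Not all keratins were near 0 in fibroblast-like cells. Krt17 was over 1 TPM in 41 of 49 untreated and 28 of 34 treated fibroblast-like cells, and Krt8, the partner of Krt18, in 23 and 17, reaching 493.1 TPM. Krt19 averaged 42.7 and 46.2 TPM in fibroblast-like cells and 224 and 180.7 TPM in keratinocyte-like cells, a log2 fold change of 2.15 ± 0.42. Reads that mapped to several places were discarded by the authors, so the levels of near-identical keratins such as Krt6a and Krt6b, or Krt14, Krt16 and Krt17, are uncertain.

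Suprabasal and cornified envelope genes were called higher in keratinocyte-like cells in 9 of 11 tested, beside 1.92% of all genes. Their median was 6.27. Sfn, a 14-3-3 protein of keratinocytes, was at 15.3 TPM or more in all 18 keratinocyte-like cells and differed by 8.13 ± 0.53. Ivl (involucrin, a cornified envelope precursor) was over 1 TPM in 2 of 8 untreated and 4 of 10 treated keratinocyte-like cells, and was listed at 0 in all 83 fibroblast-like cells. Krt10, the keratin of committed suprabasal cells, was not called (-0.95 ± 0.75): its means were 12.9 and 13.8 TPM in keratinocyte-like cells and 44.4 and 15.8 TPM in fibroblast-like cells. Krt1, Tgm3 and Calml3 were listed at 0 in all cells of both classes.

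Several of these genes were uneven among keratinocyte-like cells. Krt16, a keratin of activated epidermis, averaged 47.7 TPM in untreated and 2898 TPM in treated keratinocyte-like cells. The treated mean was carried by 3 cells, library numbers 25, 28 and 46, at 23263, 2338 and 3102 TPM, while the other treated cells lay between 4.47 and 112.4 TPM and the untreated ones between 8.20 and 173.3 TPM. The same 3 cells had the highest Krt14 (10582, 12671 and 9804 TPM) and the highest Sprr1a, a cornified envelope precursor (12874, 3910 and 7134 TPM). With 1 set per treatment, no test of treated against untreated keratinocyte-like cells was made.

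Junction genes were called higher in 14 of 19 tested, beside 1.92% of all genes, with a median of 4.81. Cdh1 (E-cadherin, the adhesion molecule of adherens junctions) was between 38.2 and 333 TPM in untreated keratinocyte-like cells (median 88.9) and between 0 and 450 TPM in treated ones (median 227). In fibroblast-like cells it never passed 1.95 TPM, and the log2 fold change was 7.001 ± 0.82 (limma adjusted p = 0.00215). Epcam differed by 8.80 ± 0.56, Cldn4 by 8.38 ± 0.66, Dsp by 6.71 ± 0.86 and Perp, a desmosomal membrane protein, by 6.51 ± 0.46. Desmosomal cadherins were also called, Dsg3 at 6.46 ± 0.96, Dsc3 at 6.17 ± 0.93 and Dsg2 at 4.93 ± 0.88. Ppl (periplakin), which belongs to the cornified envelope and desmosomes, stood apart at -0.18 ± 0.56, with means of 40.9 and 25.3 TPM in keratinocyte-like cells and 46.7 and 28.8 TPM in fibroblast-like cells. Pkp1, Pkp2, Dsc2 and Cgn lay between 2.44 and 3.36 and were not called.

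The E-box CAGGTG was found on either strand in 42.3% of the promoters of genes called higher in keratinocyte-like cells (71 promoters) and in 13.8% of those of genes called higher in fibroblast-like cells (25 promoters). The share was 17.4% of 10904 promoters of genes tested and 20.2% of all 32851 promoters of the same length. The promoter table matched 67.1% of the 213 and 73.3% of the 206 called genes, some of them with more than 1 promoter. Of the called junction genes, 8 matched, and 6 of these held the sequence, among them the 3 printed above. The grainyhead sequence AACCGGTT was found in 1 promoter of each group of called genes. These are matches of letters in the window and not binding sites.

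Epithelial transcription and splicing regulators were called higher in 8 of 13 tested, beside 1.92% of all genes, with a median of 4.04. Elf3 (6.77 ± 0.70), Grhl3 (6.19 ± 0.87), Ovol1 (5.83 ± 0.98) and Grhl2 (4.04 ± 0.87), all transcription factors of epithelia, were called, as was Esrp1 (4.82 ± 0.88). However, Elf3 averaged 0.0874 and 0.36 TPM in untreated and treated AG keratinocyte-like cells, against 1.79 and 0.588 TPM in GHA501A fibroblast-like cells. Grhl3, Ovol1, Grhl2 and Esrp1 averaged between 17.3 and 42.5 TPM in the AG cells. The 2 series were not tested against each other. Esrp1 was over 1 TPM in 17 of 18 keratinocyte-like and 1 of 83 fibroblast-like cells. Its relative Esrp2 was not called and differed in sign between the sets, at -1.79 untreated and 3.11 treated. Grhl3 was over 1 TPM in only 4 of 8 and 3 of 10 keratinocyte-like cells, so its mean rests on 7 cells.

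**Figure D3:**
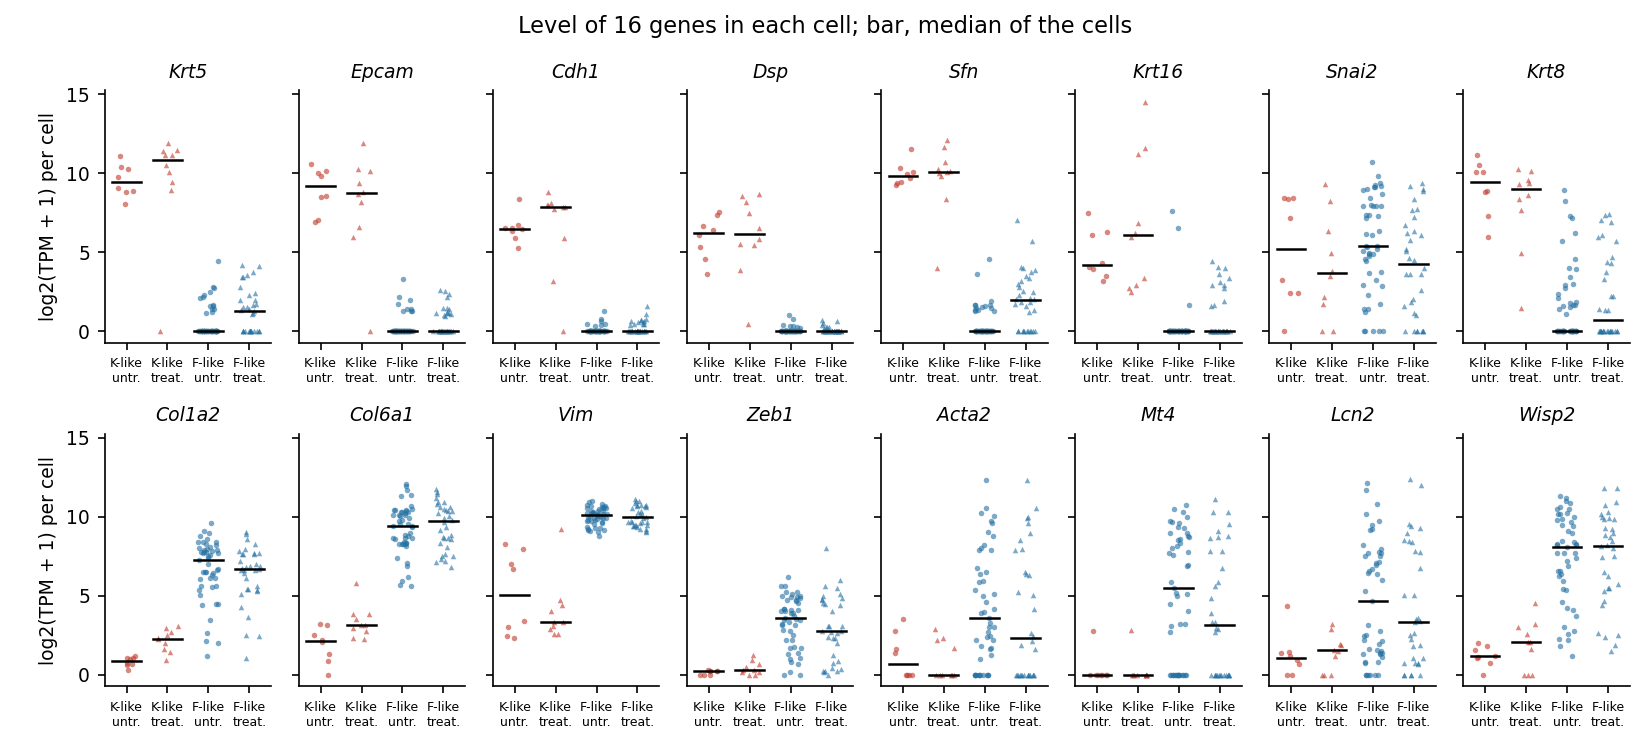
Each point is 1 cell, with log2(TPM + 1) on the y axis, for 16 genes in untreated and treated keratinocyte-like (K-like, red) and fibroblast-like (F-like, blue) cells; bars are medians. Krt5, Epcam, Cdh1, Dsp and Sfn are high in keratinocyte-like cells apart from 1 treated cell, Snai2 overlaps widely between the classes, and Mt4, Lcn2 and Acta2 are high in some fibroblast-like cells and at 0 in others.

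Interstitial collagens and matrix genes were called higher in fibroblast-like cells in 12 of 17 tested, beside 1.86% of all genes. Their median was -4.83. Col6a1, a chain of the microfibrillar type VI collagen, was between 46.9 and 4246 TPM in untreated fibroblast-like cells (median 690) and between 110.8 and 3415 TPM in treated ones (median 844). It was at most 54.2 TPM in keratinocyte-like cells, and the log2 fold change was -6.97 ± 0.48 (limma adjusted p = 0.000172). Col1a2 differed by -5.72 ± 0.74 and Col3a1, the type III collagen of dermis, by -5.62 ± 0.63. The collagen crosslinking enzymes Loxl1 and Lox differed by -6.06 ± 0.87 and -5.17 ± 0.69, and Pcolce, which helps to trim procollagen, by -3.83 ± 0.43. Without the treated cell of library number 1, Lox differed by -6.05 ± 0.76 and Pcolce by -5.33 ± 0.64. Dcn (decorin), a proteoglycan of dermal fibroblasts, was over 1 TPM in only 15 of 49 untreated and 11 of 34 treated fibroblast-like cells. Sparc (-0.87 ± 0.28) and Fn1 (-1.41 ± 0.48), both matrix glycoproteins, were over 1 TPM in every cell of both classes and were not called. Tnc (tenascin-C), a matrix glycoprotein, was the 1 gene of the list with a positive difference, at 2.70 ± 0.87, and was not called, although it passed 4-fold in both sets (2.26 and 3.13). Fstl1, a secreted glycoprotein, averaged 588 and 308 TPM in keratinocyte-like cells and 4107 and 4825 TPM in fibroblast-like cells (-3.38 ± 0.33).

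Of the basement membrane list, 1 of 9 tested was called, beside 3.78% of all genes. This was Nid1 (-3.78 ± 0.80), a linker of laminin and collagen IV, and it was higher in fibroblast-like cells. The other 8 were not called, and they ran in both directions: the laminin chain genes Lama5 and Lama4 had log2 differences of 2.87 ± 0.94 and -2.65 ± 0.73, and Col4a1, Col4a2, Lamb1, Lamc1, Hspg2 and Col7a1 lay between -1.53 and -0.35.

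Vim averaged 101.9 and 68.6 TPM in untreated and treated keratinocyte-like cells and 1104 and 1138 TPM in fibroblast-like cells, a log2 fold change of -3.73 ± 0.34 (limma adjusted p = 0.000493). Without the treated cell of library number 1 the treated mean was 11.4 TPM and the log2 fold change -4.97 ± 0.58. Vim was at 444 TPM or more in all fibroblast-like cells. Among keratinocyte-like cells it was uneven: 4 untreated cells lay between 101.3 and 311 TPM and the other 4 between 4.07 and 9.37 TPM, and all treated cells but library number 1 lay between 4.99 and 25.8 TPM. S100a4, a calcium-binding protein of fibroblasts and other motile cells, differed by -4.23 ± 0.63. Of the 8 genes tested of the fibroblast surface list, these 2 were called higher in fibroblast-like cells, beside 1.86% of all genes. Of the rest, 1 was called higher in keratinocyte-like cells and 5 were not called. The median of the list was 0.31. Ly6a (Sca1), a surface antigen of skin stem and stromal cells, averaged 2543 and 2892 TPM in keratinocyte-like and 1322 and 1462 TPM in fibroblast-like cells and was not called (0.96 ± 0.26). The gene called higher in keratinocyte-like cells was Cd44, the hyaluronan receptor (1.91 ± 0.37). However, Cd44 averaged 2.45 and 0.584 TPM in untreated and treated AG keratinocyte-like cells, against 78.8 and 70.9 TPM in GHA501A fibroblast-like cells. The 2 series were not tested against each other. Of 14 listed genes, 8 had a row in the table analysed, and Pdgfra, Pdgfrb and Thy1 were not among them.

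Of the mesenchymal transcription factors, 2 of 10 tested were called, beside 3.78% of all genes. Both were higher in fibroblast-like cells, and the median of the list was -1.83. Zeb1 averaged 0.112 and 0.391 TPM in keratinocyte-like cells and 15.6 and 20.6 TPM in fibroblast-like cells (-3.93 ± 0.85, limma adjusted p = 0.0388), and 1 of 18 keratinocyte-like cells had it over 1 TPM. Snai1 differed by -4.44 ± 0.87, with -6.51 for untreated and -2.36 for treated cells. Snai2 differed by -0.22 ± 0.39, or -0.79 ± 0.46 without the treated cell of library number 1, was not called, and was over 1 TPM in 15 of 18 keratinocyte-like and 71 of 83 fibroblast-like cells. Twist1 (-2.40), Zeb2 (-1.92) and Prrx1 (-1.14) were not called.

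Of the contractile list, 1 gene of 11 tested was called, beside 3.78% of all genes. This was Acta2 (smooth muscle actin, a marker of myofibroblasts), at -6.62 ± 0.61 (limma adjusted p = 0.000551). It was at most 10.3 TPM in GHA501A keratinocyte-like cells. In fibroblast-like cells it spread from 0 to 5129 TPM and was at 0 in 11 of 49 untreated and 14 of 34 treated cells. Its means there were 266.8 and 325.6 TPM. However, Acta2 averaged 217.5 and 143.9 TPM in untreated and treated AG keratinocyte-like cells. So its low level was not shared by all cells that met the keratinocyte-like definition. The AG cells were not tested against the GHA501A cells. Tagln and Cnn1, other genes of contractile cells, were over 1 TPM in at most 11 and 5 fibroblast-like cells of a set, and Cnn2, Tpm1, Tpm2 and Cald1 were over 1 TPM in nearly all cells of both classes, with log2 differences between -1.04 and 0.79. In the cadherin list, Cdh1 was called, while Cdh2 (N-cadherin) and Cdh11, cadherins of mesenchymal cells, were below 0.5 TPM on average in both classes and could not show a difference at these levels.

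Integrins were called in 3 of 10 tested, beside 3.78% of all genes. These were Itga6, Itga3 (4.49 ± 0.90) and Itgb4, all higher in keratinocyte-like cells and all receptors for laminin. Of these, Itgb4 averaged 0 TPM in both sets of AG keratinocyte-like cells. Itgb1, the common beta chain, was over 1 TPM in every cell and was not called (0.68 ± 0.40). Itga5, the fibronectin receptor chain, had a log2 difference of -2.25 ± 0.63 and was not called.

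Among 27 paracrine ligands and receptors tested, 5 were higher in keratinocyte-like and 3 in fibroblast-like cells, beside 1.92% and 1.86% of all genes. The median of the list was 0.72. Il1a, an epidermal alarm cytokine, had medians of 120.9 and 11.2 TPM in untreated and treated keratinocyte-like cells and averages of 0.357 and 0 TPM in fibroblast-like cells (7.50 ± 0.81), while its receptor Il1r1 averaged 32.99 and 41.5 TPM in keratinocyte-like and 182.5 and 205 TPM in fibroblast-like cells (-2.35 ± 0.43). Fgf7, a fibroblast growth factor that acts on keratinocytes, was higher in fibroblast-like cells (-3.57 ± 0.55, or -4.68 ± 0.75 without the treated cell of library number 1), with medians of 70.03 and 111.3 TPM there and of 0.482 and 1.58 TPM in keratinocyte-like cells. Its receptor gene Fgfr2 averaged under 1 TPM in all 4 profiles. Pthlh (5.73 ± 0.76), Erbb3 (5.44 ± 0.95), the EGF receptor ligand Areg (3.77 ± 0.76) and the Notch ligand Jag1 (2.12 ± 0.37) were higher in keratinocyte-like cells, and Tgfb2 (-3.35 ± 0.77) in fibroblast-like cells. However, Tgfb2 averaged 13.2 and 11.2 TPM in untreated and treated AG keratinocyte-like cells, against 7.46 and 12.7 TPM in fibroblast-like cells. Areg averaged 26.3 and 6.02 TPM in those AG cells, against 22.6 and 6.59 TPM in fibroblast-like cells. Pthlh, Erbb3 and Jag1 averaged more in both AG sets than in fibroblast-like cells. The 2 series were not tested against each other. Egfr (-0.38 ± 0.90) and Hgf (-2.95 ± 0.85) were not called.

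Of 13 Wnt ligands, receptors and inhibitors tested, 1 was called, beside 3.78% of all genes. This was Fzd1, a Wnt receptor (-2.09 ± 0.41), with means of 55.1 and 119.2 TPM in keratinocyte-like and 360 and 336 TPM in fibroblast-like cells. However, Fzd1 averaged 431 and 267 TPM in untreated and treated AG keratinocyte-like cells, and the 2 series were not tested against each other. The ligand Wnt5a averaged 0.743 TPM in untreated and 20.5 TPM in treated keratinocyte-like cells, with 1 of 8 and 9 of 10 cells over 1 TPM, and 37.96 and 38.6 TPM in fibroblast-like cells, and was not called (-2.68 ± 0.97). Of 11 beta-catenin pathway genes tested, 0 were called by limma, a number too small to set against the 3.78% of all genes, and the median was -0.49. Ctnnb1, beta-catenin itself, differed by 0.28 ± 0.46 and the target Ccnd1 by 0.24 ± 0.35. The targets Axin2, Lef1 and Notum were at most 4.03 TPM on average in any profile. Across all 11088 genes, 1928 had an unadjusted p under 0.05.

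Matrix metalloproteinases and inhibitors gave 2 calls in 8 tested, beside 3.78% of all genes. These were Mmp3 (-5.45 ± 0.89) and Mmp19 (-4.81 ± 0.89), both higher in fibroblast-like cells. Mmp3 was over 1 TPM in only 8 of 49 and 8 of 34 fibroblast-like cells, and reached 2904 TPM, so its mean rests on 16 cells. Mmp19 was over 1 TPM in 42 and 27 of them.

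Of 14 S-phase and 16 G2/M genes tested, 0 were called by limma, with medians of -0.15 and -0.68. These numbers of genes are too small to set against the 3.78% called of all genes. The log2 difference over both sets was below 0, that is lower in keratinocyte-like cells, in 9 of the 14 and 15 of the 16, and in 56.5% of all genes. The S-phase median differed in sign between the sets, at -0.32 untreated and 0.50 treated. The G2/M median was -0.66 and -0.70. Top2a, a topoisomerase of dividing cells, differed by -1.21 ± 0.34 (limma adjusted p = 0.0918), and by -1.60 ± 0.39 without the treated cell of library number 1 (limma adjusted p = 0.0302). Mki67, a marker of cycling cells, had a log2 difference of -1.50 ± 0.51, and Pcna, the replication clamp, of -0.22 ± 0.36.

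**Figure D4:**
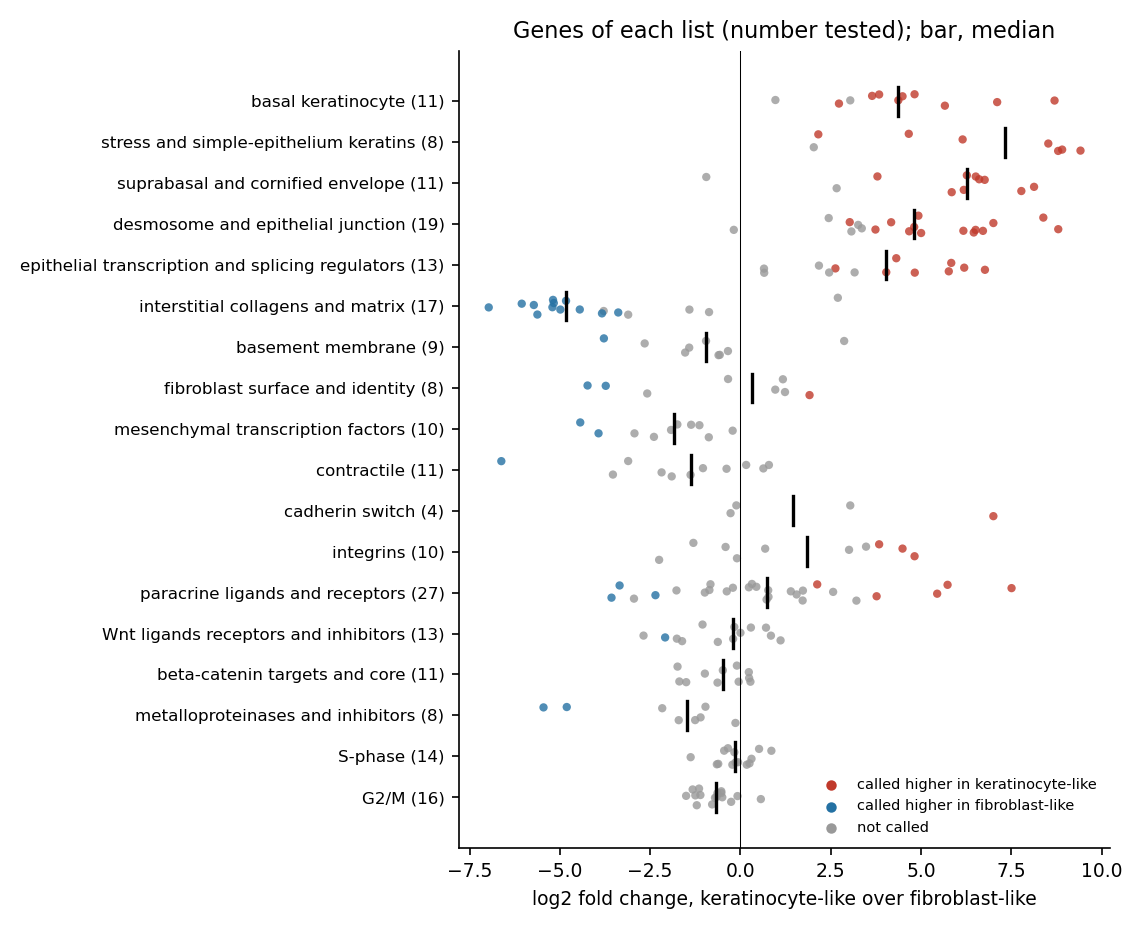
Each point is 1 tested gene of a list, placed by its log2 fold change between keratinocyte-like and fibroblast-like cells (x axis), with the number tested in brackets and the list median as a bar. The 5 epithelial lists at the top have medians between 4.04 and 7.34, and the interstitial matrix list has a median of -4.83. The beta-catenin, S-phase and G2/M lists have no called gene, but are too small to set against the 3.78% called of all genes.

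Beyond the lists, the called genes with the largest differences that were over 1 TPM in at least 50% of the cells of the higher class in each set were taken, 10 in each direction, of which 9 and 10 are named. Higher in keratinocyte-like cells were Fgfbp1 (8.39 ± 0.63), a carrier of fibroblast growth factors, Gpx2 (8.19 ± 0.67), a glutathione peroxidase of epithelia, the cytokine Il24 (7.97 ± 0.75), the chemokine Ppbp (7.91 ± 0.41), the protease Tmprss11e (7.50 ± 0.66), arginase Arg1 (7.49 ± 0.65), the serpin Serpinb5 (7.39 ± 0.79), Tmem51 (7.36 ± 0.86) and the trafficking protein Rab25 (7.20 ± 0.81). Ppbp was over 1 TPM in all 18 keratinocyte-like cells, with a range of 163.2 to 3585 TPM in untreated and 4.16 to 7936 TPM in treated cells. In fibroblast-like cells it was over 1 TPM in 18 of 49 and 16 of 34, and reached 112.5 TPM. Arg1 was over 1 TPM in only 5 of 8 and 6 of 10 keratinocyte-like cells.

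Higher in fibroblast-like cells were the metallothionein Mt4 (-7.28 ± 0.69), Wisp2 (-7.25 ± 0.54), a secreted matricellular protein, the secreted Cthrc1 (-7.16 ± 0.72), the transporter Slc43a3 (-7.04 ± 0.60), lipocalin Lcn2 (-6.58 ± 0.56), Enpp2 (-6.15 ± 0.82), which makes lysophosphatidic acid, Creb3l1 (-6.07 ± 0.83), a regulator of collagen secretion, Prune2 (-6.05 ± 0.52), Rcn3 (-6.004 ± 0.77) and the cytochrome Cyp1b1 (-5.97 ± 0.80). Wisp2 was over 1 TPM in all 83 fibroblast-like cells, with medians of 272 and 287 TPM, and was at most 21.8 TPM in keratinocyte-like cells. Prune2 was likewise over 1 TPM in every fibroblast-like cell, with medians of 643 and 621 TPM, and had medians of 5.53 and 4.59 TPM in keratinocyte-like cells. Mt4 is best known from differentiated squamous epithelium. Here it was over 1 TPM in 34 of 49 and 20 of 34 fibroblast-like cells and reached 2235 TPM, and was over 1 TPM in 1 of 8 and 1 of 10 keratinocyte-like cells. Lcn2 spread from 0 to 5417 TPM in fibroblast-like cells and was at most 18.9 TPM in keratinocyte-like cells.

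Markers of other cell types were read in the same way. The endothelial genes Kdr and Tek were listed at 0 in all cells of both classes, and the summed level of the 4 endothelial genes in the table was at most 0.978 TPM. Of 4 leukocyte genes, Adgre1 was listed at 0 in all cells, and Lyz2 was higher in fibroblast-like cells (-3.81 ± 0.56), where it averaged 453 and 474 TPM and was over 1 TPM in 44 of 49 and 32 of 34 cells. However, Lyz2 also averaged 150.3 and 100.4 TPM in untreated and treated AG keratinocyte-like cells. Csf1r was not called (0.27 ± 0.94), with means of 11.5 and 3.10 TPM in keratinocyte-like and 4.56 and 5.35 TPM in fibroblast-like cells. Fcer1g averaged 0.639 TPM in untreated fibroblast-like cells and 0 in the other profiles. The summed leukocyte level was therefore mostly Lyz2 in fibroblast-like cells. It ranged from 0 to 3071 TPM in untreated and from 0.494 to 5254 TPM in treated fibroblast-like cells, and from 0 to 84.2 and 0 to 737 TPM in keratinocyte-like cells. Of the melanocyte, Schwann cell, pericyte, adipocyte and skeletal muscle lists, 0 of 12 genes tested were called by limma. This number of genes is too small to set against the 3.78% called of all genes. Some of these differed widely in 1 set: the pericyte gene Rgs5 averaged 119.5 TPM in untreated keratinocyte-like and 0.967 TPM in untreated fibroblast-like cells, but 29.1 and 32.98 TPM in treated ones, and the melanocyte gene Pmel had log2 differences of 0.65 among untreated and 3.64 among treated cells. The part of any such cells in the class differences was not tested.

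The levels of the called genes were also read in the AG keratinocyte-like cells. Over the 213 genes called higher in keratinocyte-like cells, the median log2 level was 6.25 and 6.97 in untreated and treated GHA501A keratinocyte-like cells, 0.80 and 0.87 in fibroblast-like cells, and 5.98 and 5.73 in AG keratinocyte-like cells. Over the 206 genes called higher in fibroblast-like cells it was 1.05 and 1.74 in GHA501A keratinocyte-like cells, 6.28 and 6.46 in fibroblast-like cells, and 3.42 and 3.20 in AG keratinocyte-like cells. Fstl1 averaged 2248 and 1886 TPM in AG keratinocyte-like cells, between the levels of the 2 GHA501A classes. The 2 library series do not list all genes alike. Of 3352 genes at 20 TPM or more in all 4 GHA501A profiles, 239 averaged under 1 TPM in both AG sets. Among these was Ctnnb1, at 64.7 to 123 TPM in GHA501A and 0.00637 and 0.00987 TPM in AG. No test was therefore made between the series.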

How the data were processed

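The deposited values are TPM per gene and cell. Per the labels and the methods of the study, the authors checked reads with FastQC and trimmed them with Cutadapt. Alignment to GRCm38 was by Tophat, reads mapping to several places were removed, and featureCounts gave the read counts that the authors turned into TPM. The versions and the annotation are not given in the sources used here. The table holds 14145 genes and 294 columns. No label was found for 16 columns, which were set aside, and 8 labelled cells whose library name and treatment label disagree were left out. Each cell sums to 1000000, so its depth is unknown and so is the precision of low values. Cells were grouped by label into library sets and by Krt14 and Col1a1 into classes.

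Genes over 1 TPM in more than 5 of all 140 labelled GHA501A cells, those in no class included, were kept, without Krt14 and Col1a1. The log2(mean TPM + 1) of each class and set was fitted in R 4.3.3 by limma 3.58.1. This was a moderated two-sided test with a mean-variance trend and class and library set as terms. The Benjamini-Hochberg adjustment ran over all genes tested. Fold changes are on the log2(mean TPM + 1) scale and understate those of low genes. The library set is the block because the cells of a set share a treatment label. Untreated and treated sets share no cell. Genes are named if on a list or by the rule given in the text. Some genes that these rules name are not reported here. The members, lists and thresholds were chosen with earlier results of these data known. The script was tested on simulated data. Positions come from GENCODE M21 and promoters from RefSeq. Other steps used pandas 2.3.3, numpy 2.4.6 and scipy 1.17.1 in Python 3.11.15, with matplotlib 3.10.9 for plots. Alternatives were a pseudocount of 0.1, no filter, a filter of 10% of cells, the mean of log2 values, no block, no trend, 2 rescalings, stricter class thresholds, 6 profiles, cells with at least 4000 genes, and each set left out; leaving out the cell with Krt5 at 0 was added after seeing the data.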

Additional observations from a re-analysis of the deposited data

Results flagged for a closer look

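In 20 combinations of list and group of keratinocyte-like cells, a cell was singled out where its gap to the nearest other cell exceeded Dixon's critical value, which chance does in about 1 in 20. The treated cell of library number 1 stood apart in 3 of them: its mean log2(TPM + 1) was 0.49 over the basal list against a median of 5.14, 0.79 over the junction list against 4.09, and 3.89 over the mesenchymal transcription factors against 1.66. An untreated cell stood apart in 2, with 9.59 over the stress and simple keratins against a median of 7.74 and 5.70 over the epithelial regulators against 2.26.

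For 9 listed genes, none called, the difference between keratinocyte-like and fibroblast-like cells was beyond 1 on the log2 scale with opposite signs in the sets. The differences in the treated and the untreated set were 3.11 and -1.79 for Esrp2, 1.08 and -1.78 for Col7a1, 1.16 and -1.84 for Fbln1, -1.66 and 2.93 for Ctgf, 1.28 and -1.56 for Mmp14, 1.13 and -1.41 for Cdc6, 1.30 and -1.43 for Gins2, 3.58 and -1.09 for Fabp4, and 1.80 and -2.19 for Myf5. With 1 set per treatment, the difference between the sets was not tested.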

How the results depend on the processing

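Calls are given as the percent of genes tested that were higher in keratinocyte-like and in fibroblast-like cells, against 1.92% and 1.86%. They were 0.111% and 0.0397% with no filter on low values (14 and 5 genes), 0.658% and 0.478% without the mean-variance trend, 0.956% and 0.893% without the library set as a replicate block, 1.27% and 1.19% with 6 profiles and 4.62% and 3.47% with the mean of log2 values. Calls higher in fibroblast-like cells came to 3.41% with the filter of 10% of cells and 3.11% without the cell with Krt5 at 0. Stricter class thresholds left 4 untreated and 1 treated keratinocyte-like cells, and 0 genes were called by limma, with 989 at an unadjusted p under 0.05. The treated keratinocyte-like share was then 1.45%.

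The share past 4-fold in both sets, 2.7% and 3.69%, was 1.73% and 1.33% with the mean of log2 values. Higher in fibroblast-like cells, it was 7.36% with a pseudocount of 0.1 and 7.29% under stricter class thresholds. With 1 set left out it was 4.51 to 8.82% and 9.28 to 9.80%, since 1 set then had to pass. Counting genes over 0 TPM gave medians of 7846 and 6834 genes in untreated and treated keratinocyte-like cells, and 7235 and 7145.5 in fibroblast-like cells. Of 98 called genes on the lists or taken by the naming rule, 81 were no longer called with no filter, 43 without the trend, 28 without the block, 14 with 6 profiles, 1 with the mean of log2 values and 98 under stricter thresholds, and none changed direction. The causes were not tested. Within-set depth is unknown, so low values carry an unknown counting error.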
